A study of Mus musculus with 4 samples.

Results

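The genes described here are the mouse replication-dependent histone genes, 56 of the 27597 genes listed in at least 1 of the deposited expression tables. They were chosen by name, as every listed gene whose Ensembl identifier maps in GENCODE M21 to an older mouse symbol that begins with Hist1h, Hist2h, Hist3h or Hist4h. The rule itself reads names and not values. GENCODE M21 names 70 such genes, and the other 14 are not analysed here. The 56 genes comprise 6 of the linker histone H1, 18 of H2A, 14 of H2B, 6 of H3 and 12 of H4. The Hist1 group holds 45 of them on chromosome 13, Hist2 holds 8 on chromosome 3, Hist3 holds 3 on chromosome 11, and Hist4 has none. Hist1h2aj, Hist1h2al and Hist3h2bb-ps, 3 in all, are annotated as pseudogenes.

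The cells sequenced were embryonic skin fibroblasts of the mouse strain OGXICR, taken at D13.5 after the epidermis had been removed, and infected with a doxycycline-inducible lentivirus. The 4 groups carried OSKM (OCT4, SOX2, KLF4 and c-MYC), G3SKM (GATA3 in place of OCT4), SKM (SOX2, KLF4 and c-MYC) or an empty vector. Per its labels the study looked for reprogramming factors beyond the OSKM set. Each group has 1 value per gene that stands for 2 replicates combined, so no difference below can be set against a spread between replicates and no test was possible.

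In dividing cells the replication-dependent histone genes supply the bulk of the core histones H2A, H2B, H3 and H4 and of linker histone H1, and they are transcribed mainly while DNA is copied. Their messages usually end in a conserved stem-loop instead of a poly(A) tail, and the stem-loop binding protein and the U7 small nuclear ribonucleoprotein act on it. Replacement histones such as H2AZ and H3.3 come from separate genes whose messages are polyadenylated and made throughout the cell cycle.

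The values are RPKM, read counts scaled to gene length in kilobases and to depth. The reads recovered from them gave depths of 74.7 M (mega-reads) for OSKM, 102 M for G3SKM, 54.0 M for SKM and 111 M for empty vector. A level of 1 RPKM or more was reached by 9633, 9741, 9324 and 8984 of all genes in OSKM, G3SKM, SKM and empty vector cells. A gene was compared between 2 groups when it reached 1 RPKM in at least 1 of them, and was called higher or lower when its log2 ratio, taken after adding 1 to both RPKM values, reached 1 or -1. Folds are plain ratios of RPKM, with 95% Clopper-Pearson intervals on the recovered reads that cover counting error only. The median gene had log2 ratios of 0.18 for OSKM, 0.17 for G3SKM and 0.15 for SKM against empty vector, and of at most 0.01 in size between the factor combinations. Pou5f1, the gene of OCT4, had 3.69 RPKM in OSKM, 0.212 in G3SKM, 0.297 in SKM and 0 in empty vector cells, and Gata3 had 0.571 RPKM in G3SKM and at most 0.0836 RPKM in the other groups. Among the fibroblast markers chosen for the check, 10 of 11 reached 1 RPKM in OSKM, 8 in G3SKM, 8 in SKM and 9 in empty vector cells, and their summed level was 391.7, 381, 662 and 883 RPKM in that order. The summed level of 8 macrophage markers was 1.92, 3.42 and 4.29 RPKM in OSKM, G3SKM and SKM cells and 31.8 RPKM in empty vector cells, where Lyz2 led with 16.4 RPKM. Of 6 keratinocyte markers only Krt14 reached 1 RPKM, with 16.5, 22.8 and 33.8 RPKM in OSKM, G3SKM and SKM cells and 0.0656 RPKM in empty vector cells. No endothelial, erythroid or germ cell marker reached 1 RPKM in any group, and no fibroblast or macrophage marker was at 0. These bulk values cannot tell fewer cells of a type from less RNA per cell, and the part of other cell types in the histone levels was not tested.

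The stem-loop is shown first because it marks the class. A search of GENCODE M21 transcripts for the histone stem-loop motif, on the transcribed strand, found it in 37 of the 56 genes (66.1%) and in 59 of all 55450 genes (0.106%). It was found in 4 of 6 H1, 9 of 18 H2A, 8 of 14 H2B, 5 of 6 H3 and 11 of 12 H4 genes. A missing match says only that the annotated transcript does not hold these letters. In the sequences printed here, 5′ to 3′ and with T for U, capitals mark the stem and its loop.
Hist1h1c: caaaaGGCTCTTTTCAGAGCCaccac
Hist1h2ac: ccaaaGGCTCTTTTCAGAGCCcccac
Hist2h2ac: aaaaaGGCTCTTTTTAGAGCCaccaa
Hist1h2bk: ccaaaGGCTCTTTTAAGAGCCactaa
Hist1h3a: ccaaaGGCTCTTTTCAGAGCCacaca
Hist1h3c: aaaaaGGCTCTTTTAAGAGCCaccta
Hist1h4c: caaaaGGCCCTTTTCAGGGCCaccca
Hist1h4j: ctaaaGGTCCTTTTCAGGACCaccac
Hist1h4a: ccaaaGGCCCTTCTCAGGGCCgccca
The 5′ arm of the stem read GGCTC in every match of H1, H2A, H2B and H3. All 11 matches of H4 read GGCCC or GGTCC there. The commonest version of stem and loop occurred in 20 genes, and the commonest H4 version in 6.

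Promoters are shown because OCT4, the factor that sets OSKM apart from SKM, belongs to the POU family, whose members recognise the octamer ATTTGCAT, and because this octamer is a known element of H2B promoters. RefSeq promoters of GRCm38.p6, each 300 bases long from 250 bases before the gene's start, were matched to 49 of the 56 genes through older symbols. Both strands were searched for the TATA box (TATAAA), the CCAAT box (the letters CCAAT) and the octamer (ATTTGCAT), and matches may overlap other motifs. The letters TATAAA were present in 31 of 49 promoters (63.3%) and in 14.1% of all 27025 promoters. Matches were counted anywhere in the 300 bases, some of them after the start, so a match need not be that gene's TATA box. CCAAT was present in 41 of 49 (83.7%) and in 37.8% of all promoters, with every H1, H2A, H2B and H3 promoter holding it and 3 of 11 H4 promoters. The octamer was present in 12 of 49 (24.5%) and in 1.74% of all promoters. Those 12 were 7 of 16 H2A and 5 of 11 H2B promoters, with none in H1, H3 or H4. Some overlap: Hist1h2aa and Hist1h2ba, Hist1h2ae and Hist1h2bg, and Hist1h2ah and Hist1h2bk each have the same octamer counted for both genes. Shown next are the 200 bases before the start of 4 genes, read along the gene's own strand, with the 3 motifs of either orientation in capitals.
Hist1h2ac, chr13:23683960-23684159, minus strand: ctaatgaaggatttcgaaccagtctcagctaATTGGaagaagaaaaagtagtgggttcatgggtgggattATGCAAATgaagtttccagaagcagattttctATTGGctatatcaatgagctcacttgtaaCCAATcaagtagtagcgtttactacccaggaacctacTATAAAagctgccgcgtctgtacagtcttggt
Hist1h2bk, chr13:22035621-22035820, plus strand: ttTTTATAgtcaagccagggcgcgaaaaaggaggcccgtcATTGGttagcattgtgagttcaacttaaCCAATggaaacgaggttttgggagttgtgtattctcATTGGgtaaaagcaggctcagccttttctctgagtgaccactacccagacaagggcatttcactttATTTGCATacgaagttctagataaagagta
Hist1h3b, chr13:23752145-23752344, plus strand: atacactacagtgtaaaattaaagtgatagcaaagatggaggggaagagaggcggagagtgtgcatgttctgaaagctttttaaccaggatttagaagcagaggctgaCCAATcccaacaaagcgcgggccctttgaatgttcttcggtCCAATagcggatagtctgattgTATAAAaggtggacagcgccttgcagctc
Hist1h4d, chr13:23581368-23581567, plus strand: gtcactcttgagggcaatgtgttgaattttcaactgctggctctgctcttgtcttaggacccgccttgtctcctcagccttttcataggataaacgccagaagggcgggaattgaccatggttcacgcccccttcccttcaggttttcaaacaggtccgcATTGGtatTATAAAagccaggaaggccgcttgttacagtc
The octamer stands in the promoters of Hist1h2ac and Hist1h2bk, and not in those of Hist1h3b and Hist1h4d. The other capitals match CCAAT or TATAAA, and the TATAAA match of Hist1h2bk, on the opposite strand, lies 198 bases before its start.

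At least 1 RPKM was reached by 45 of the 56 histone genes in OSKM, 46 in G3SKM, 47 in SKM and 42 in empty vector cells. H2A genes had the highest levels per length, with a median of 30.7, 20.9, 28.7 and 22.2 RPKM in OSKM, G3SKM, SKM and empty vector cells. Median H4 levels were 5.46, 5.06, 6.97 and 2.07 RPKM in the same order, and median H3 levels 2.73, 2.92, 4.37 and 1.21 RPKM. H2B genes had medians of 2.75, 2.81, 3.49 and 2.89 RPKM, and H1 genes 0.276, 0.556, 0.697 and 0.258 RPKM. Levels depend on the length used. The fitted lengths of the H2B genes Hist1h2bc and Hist1h2be were 8289 and 37381 bases, against 1156 and 4446 bases of exon. Their RPKM are therefore low for their reads, and Hist1h2be stayed under 1 RPKM with 852 reads in empty vector cells. For H3 and H4 the lowest of the 4 medians was that of empty vector cells, while for H2A the G3SKM median lay lowest.

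**Figure D1:**
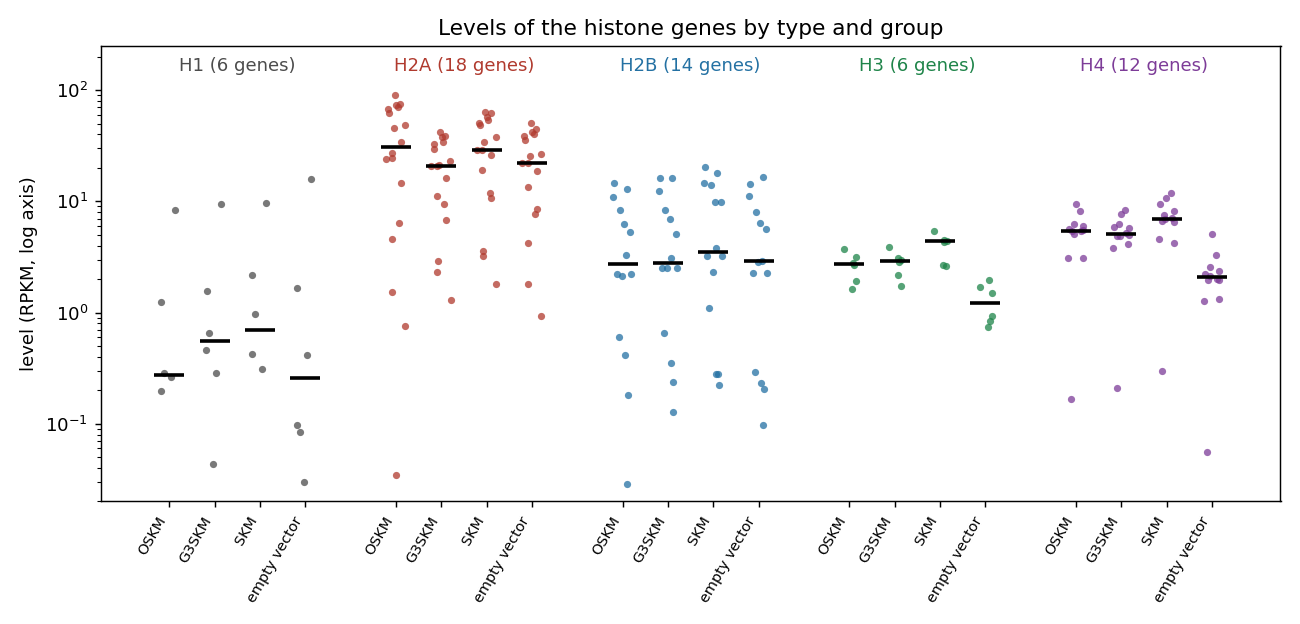
Level of each histone gene in RPKM (log axis) by histone type, with a point per gene, a bar at the median, and the groups from left to right OSKM, G3SKM, SKM and empty vector. The H4 medians of 5.46, 5.06 and 6.97 RPKM under the factors stand above the 2.07 RPKM of empty vector cells, and values of 0 are left off the log axis.

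Summed over the genes of a type, H4 had 63.2 RPKM in OSKM, 62.3 in G3SKM, 84.0 in SKM and 26.3 in empty vector cells, which is 2.41, 2.37 and 3.20 times the empty vector sum. H3 summed to 15.9, 16.7, 23.9 and 7.68 RPKM, or 2.07, 2.17 and 3.12 times the empty vector sum. H2A summed to 672, 351, 543 and 404 RPKM, or 1.66, 0.871 and 1.35 times. H2B summed to 69.4, 77.4, 101 and 73.2 RPKM, or 0.948, 1.06 and 1.38 times. H1 summed to 10.4, 12.4, 13.51 and 18.1 RPKM, or 0.574, 0.684 and 0.747 times. These sums may count a read more than once where copies share it. That sharing is wide: the median share of a gene's 50-base windows found also in another histone gene was 67.3% for H2A, 62.0% for H3, 42.1% for H2B, 39.9% for H4 and 1.105% for H1. How the authors' counting assigned reads that match several copies is not given in the sources used here, so near-identical copies are uncertain and are not independent measurements.

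The comparisons with empty vector ask how histone genes stood in cells given each factor combination. H4, the core histone that pairs with H3, was the type with the most calls in all 3. In OSKM cells 7 of 11 H4 genes and 1 of 6 H3 genes were called higher than in empty vector cells, 8 of the 45 histone genes compared (17.8%), where 4.82% of all genes were called higher. In G3SKM cells 8 of 11 H4 and 2 of 6 H3 genes were called higher, 10 of 46 (21.7%) against 7.11% of all genes. In SKM cells 10 of 11 H4 and 4 of 6 H3 genes were called higher, 14 of 47 (29.8%) against 8.88% of all genes. No histone gene was called lower in any of the 3, against 4.16%, 3.75% and 5.98% of all genes.

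The calls in OSKM and G3SKM cells lie close to the threshold. The median log2 ratio of H4 genes was 1.04 in OSKM, 1.03 in G3SKM and 1.34 in SKM cells against empty vector, and that of H3 genes was 0.69, 0.85 and 1.16. Relative to the median of all genes, H4 stood at 0.86, 0.86 and 1.19 and H3 at 0.51, 0.68 and 1.02. Centred in that way, 0 of 45 histone genes were called higher in OSKM and 0 of 46 in G3SKM cells, against 13 of 47 in SKM cells. The share of all genes called after centring was not computed. As plain folds, all 11 H4 genes had a counting interval above 1 in each comparison, with folds of 1.84 to 2.81 in OSKM, 1.504 to 3.17 in G3SKM and 2.10 to 4.29 in SKM cells. All 6 H3 genes had an interval above 1 in OSKM (1.29 to 3.41) and SKM cells (1.75 to 5.31), and 5 of 6 did in G3SKM cells (1.17 to 3.39). The share of all genes with such an interval was not computed, so these counts cannot be read as particular to histone genes.

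**Figure D2:**
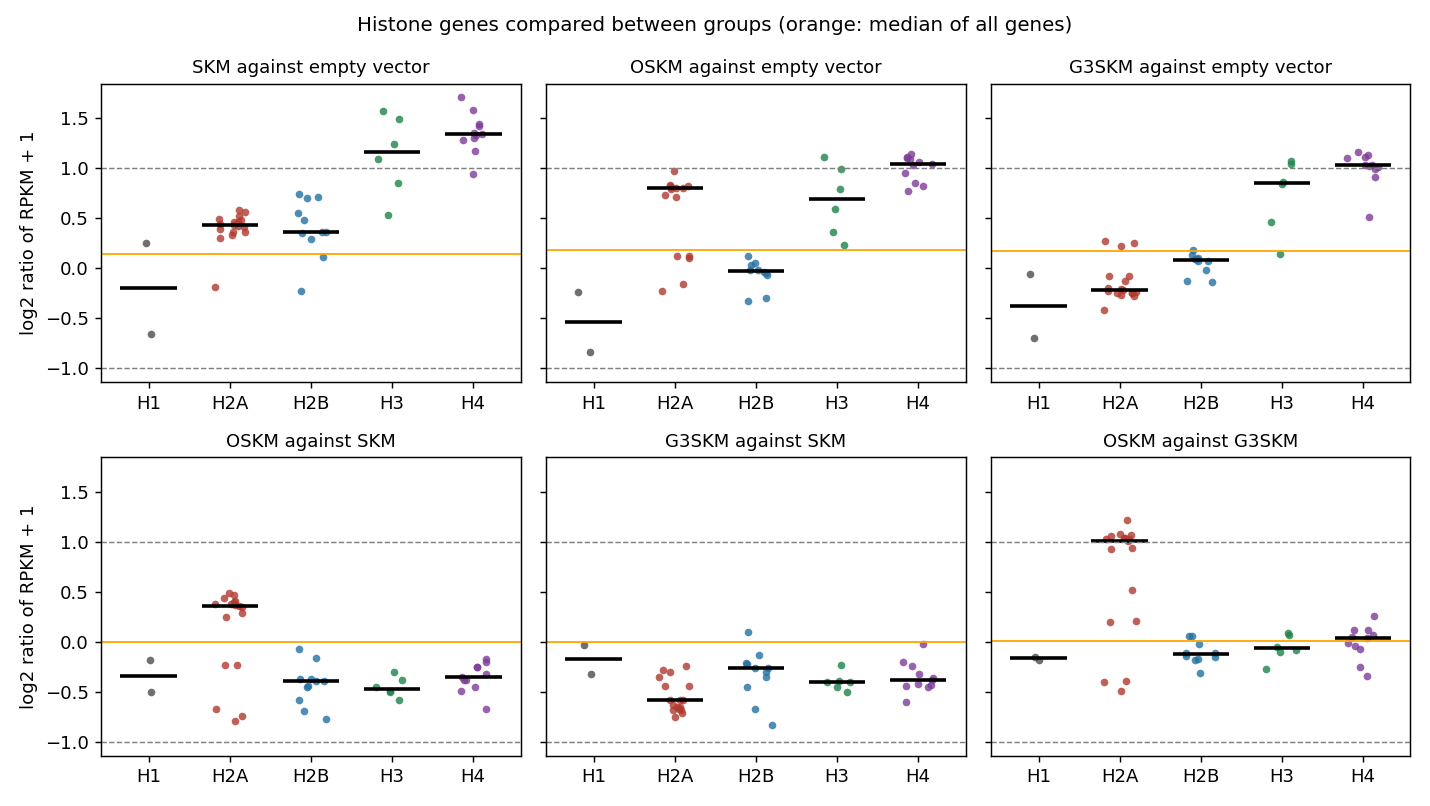
log2 ratio of RPKM + 1 for each compared histone gene by type, in 6 comparisons with the group named first on top, with bars at the type median, an orange line at the median of all genes and dashed lines at the threshold of 1 in either direction. H4 medians of 1.34, 1.04 and 1.03 stand in the upper panels, and in OSKM against G3SKM only H2A genes lie past the threshold.

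In all 11 compared H4 genes the empty vector value was the lowest and the SKM value the highest. The SKM values moved with the GC content of the transcript, as described below. With that trend removed, median log2 ratios against empty vector in OSKM, G3SKM and SKM cells were 1.03, 1.05 and 1.04 for H4. For H3 they were 0.68, 0.83 and 0.89. Hist1h4j had 5.62 RPKM in OSKM, 5.94 in G3SKM, 9.51 in SKM and 2.22 in empty vector cells. Its folds over empty vector were 2.54 (1.98 to 3.26), 2.68 (2.13 to 3.39) and 4.29 (3.38 to 5.47). Hist1h4k had the same order of the groups, with 8.17, 8.42, 11.8 and 3.30 RPKM in OSKM, G3SKM, SKM and empty vector cells. Hist1h4c had 6.04, 5.80, 8.17 and 2.37 RPKM in the same order, and Hist1h4i had 9.44, 7.70, 10.8 and 5.12 RPKM. Hist1h4i was the highest H4 gene in empty vector cells and the only H4 gene under the threshold in all 3 comparisons, at log2 ratios of 0.77, 0.51 and 0.94 for OSKM, G3SKM and SKM. Hist1h4f had 3.09, 4.17, 4.22 and 1.31 RPKM and the largest log2 ratio of the histone genes in G3SKM cells, 1.16. Hist1h4n had 5.49, 4.98, 6.47 and 1.95 RPKM and the largest in OSKM cells, 1.14. Hist1h4b, Hist1h4d and Hist1h4m had folds of 2.71, 2.43 and 2.74 in OSKM cells and of 2.57, 3.05 and 2.49 in G3SKM cells. Hist2h4 stayed under 1 RPKM in every group, with 10, 17, 13 and 5 reads.

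Among the H3 genes, which encode the histone whose tail carries many of the best known chromatin marks, the Hist1 copies stood farther above empty vector than the Hist2 copies. Hist1h3a had 2.66 RPKM in OSKM, 2.86 in G3SKM, 4.48 in SKM and 0.844 in empty vector cells, a fold of 5.31 (3.80 to 7.51) for SKM. Hist1h3c had 3.17, 2.97, 4.41 and 0.930 RPKM in the same order, and its fold in OSKM cells was 3.41 (2.53 to 4.64). Hist1h3b had 3.70, 3.85, 5.41 and 1.72 RPKM. In each of these genes the 3 factor values lay above the empty vector value and the SKM value was the highest. Hist2h3b had 2.80, 3.07, 4.33 and 1.96 RPKM, with folds of 1.43 (1.08 to 1.90), 1.57 (1.22 to 2.03) and 2.21 (1.68 to 2.91), and the order of the groups was the same as in Hist1h3a. Hist2h3c2 had 1.92, 1.74, 2.60 and 1.49 RPKM, and its G3SKM interval included 1.

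Calls were also made among H3 and H4 genes that share fewer windows. Among genes with at most 50% of their windows in another histone gene, 3 of 7 H4 and 1 of 2 H3 genes were called higher in OSKM cells, 5 of 7 and 2 of 2 in G3SKM cells, and 6 of 7 and 2 of 2 in SKM cells. Of all genes 4.82%, 7.11% and 8.88% were called higher in that order. The 2 H3 genes, Hist1h3a and Hist1h3c, lie just under the limit at 49.5% and 47.0%, and share windows with each other. The median log2 ratios of those 7 H4 genes were 0.95, 1.04 and 1.302.

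H2A and H2B form a dimer that joins the H3-H4 core, and no gene of either type was called against empty vector. Median log2 ratios of H2A genes were 0.80 in OSKM, -0.22 in G3SKM and 0.44 in SKM cells. Counting intervals lay above 1 in 13 of 16 compared H2A genes in OSKM and in 16 of 17 in SKM cells, and below 1 in 12 of 17 in G3SKM cells. Many of these genes share reads, and the share of all genes with such intervals was not computed. Median log2 ratios of H2B genes were -0.03 in OSKM, 0.08 in G3SKM and 0.36 in SKM cells, with intervals above 1 in none of 10, 2 of 10 and 9 of 11 genes. Hist1h2bk, among the H2B genes with the highest RPKM by the lengths used, had 14.6, 16.3, 20.3 and 14.2 RPKM in OSKM, G3SKM, SKM and empty vector cells. Its folds were 1.02 (0.913 to 1.15), 1.14 (1.03 to 1.27) and 1.43 (1.27 to 1.60). Hist1h2bg had 12.9, 16.2, 17.9 and 16.5 RPKM and a fold of 0.784 (0.708 to 0.866) in OSKM cells, the only group well below its empty vector value. Hist1h2bf had 10.9, 12.5, 14.6 and 11.3 RPKM. Hist3h2ba, under 1 RPKM except in SKM cells, had 0.605, 0.652, 1.11 and 0.291 RPKM on 28, 41, 37 and 20 reads.

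**Figure D3:**
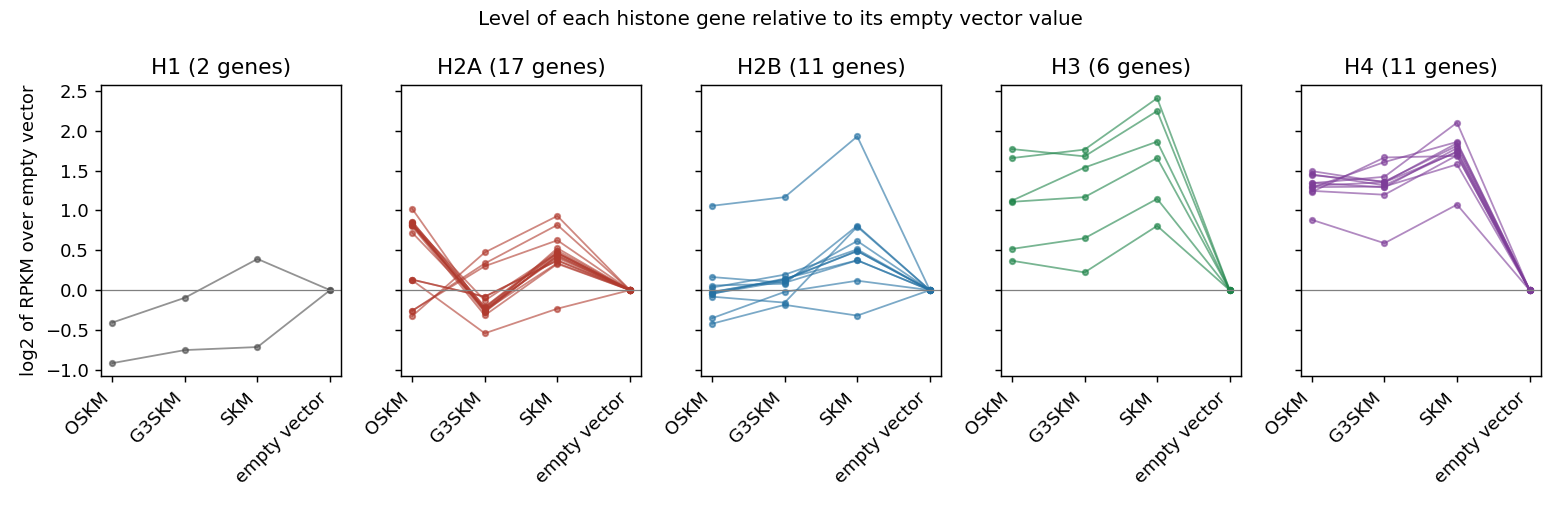
log2 of each histone gene's RPKM over its own empty vector value by histone type, for the genes that reached 1 RPKM in some group, with a line per gene and OSKM, G3SKM, SKM and empty vector from left to right. All H3 and H4 lines lie above 0 under each factor combination, and 14 H2A lines lie above 0 in OSKM and below 0 in G3SKM.

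The linker histone genes differed from one another, and only 2 of the 6 were compared. Hist1h1c, which encodes the linker histone H1.2, had 8.37 RPKM in OSKM, 9.37 in G3SKM, 9.62 in SKM and 15.8 in empty vector cells. Its folds were 0.530 (0.492 to 0.571), 0.594 (0.557 to 0.633) and 0.610 (0.563 to 0.660), so that all 3 factor values lay below the empty vector value, at log2 ratios of -0.84, -0.69 and -0.66 that did not reach the threshold. Hist1h1e, for H1.4, had 1.25, 1.56, 2.18 and 1.66 RPKM, with the SKM value highest and an interval that included 1 in each comparison with empty vector. Its span overlaps that of Hist1h2be, on the same strand, and that of Gm11398. Reads where the spans overlap cannot be told apart from its own, and the library kit does not mark strand. Hist1h1b, for H1.5, had 0.288, 0.650, 0.972 and 0.0849 RPKM on 16, 49, 39 and 7 reads, folds of 3.40 (1.32 to 9.77), 7.66 (3.45 to 20.1) and 11.5 (5.07 to 30.4). It stayed under 1 RPKM and was not called. Hist1h1a had 11, 35, 17 and 8 reads and Hist1h1d 75, 111, 64 and 178.

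The comparison of OSKM with G3SKM sets the factor combinations that differ in OCT4 and GATA3 beside each other, and here the calls fell in H2A. Of 46 histone genes 9 were called higher in OSKM (19.6%), all of them H2A, against 0.724% of all genes, and none lower, against 2.25%. Their median log2 ratio over all 17 compared H2A genes was 1.01, against -0.12 for H2B, -0.06 for H3 and 0.04 for H4.

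All 9 belong to a set of 11 near-identical Hist1 H2A copies, Hist1h2ab to Hist1h2ak and Hist1h2an, a set put together after the values were seen. Hist1h2ag, the highest histone gene, had 90.4 RPKM in OSKM, 42.4 in G3SKM, 64.0 in SKM and 50.6 in empty vector cells, a fold of OSKM over G3SKM of 2.13 (2.01 to 2.25). Hist1h2ak had 27.2, 11.1, 19.3 and 13.4 RPKM and the largest such fold, 2.44 (2.21 to 2.71). Hist1h2ac had 14.8, 6.81, 10.7 and 8.48 RPKM, a fold of 2.17 (2.04 to 2.30). In each of the 3 the OSKM value was the highest and the G3SKM value the lowest. Across the 11 copies, OSKM stood 1.93 to 2.44 times G3SKM, 1.65 to 2.03 times empty vector and 1.19 to 1.41 times SKM. G3SKM stood at 0.803 to 0.914 times empty vector and 0.576 to 0.662 times SKM. Hist1h2af and Hist1h2an, with 74.1 and 74.5 RPKM in OSKM cells and 38.1 and 38.6 RPKM in G3SKM cells, had log2 ratios of 0.94 and 0.93 and stayed under the threshold.

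These copies cannot be read as 11 measurements. The 10 without Hist1h2ak had 2184 to 3174 reads each in OSKM, 1509 to 2024 in G3SKM, 1239 to 1627 in SKM and 1844 to 2644 in empty vector cells, and Hist1h2ak had 1042, 579, 535 and 764. The differences in RPKM among them go with the length of the gene model: Hist1h2ac, with 2737 reads in OSKM cells over 2481 bases, stood at 14.8 RPKM. H2afx, the gene of the replacement histone H2AX, shares up to 27.1% of a copy's windows with them and had 71.5, 38.4, 71.7 and 43.1 RPKM in OSKM, G3SKM, SKM and empty vector cells. Among H2A genes with at most 50% shared windows, 2 of 5 were called higher in OSKM than in G3SKM. Both, Hist1h2ac and Hist1h2ae, belong to the 11 copies and pass that limit with longer annotated transcripts, and none of the other 3 was called.

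None of the other 6 compared H2A genes was called, and they differed among themselves. Their log2 ratios of OSKM over G3SKM ran from -0.49 to 0.52, with 3 genes above 0 and 3 below. Hist1h2al had 6.39 RPKM in OSKM, 9.40 in G3SKM, 11.8 in SKM and 7.64 in empty vector cells, the lowest value in OSKM, and Hist2h2ac had 1.52, 2.30, 3.21 and 1.82 RPKM with the same lowest group. Hist2h2ab had 0.751, 1.31, 1.79 and 0.941 RPKM. Hist2h2aa1 and Hist2h2aa2 are nearly the same sequence, and Hist2h2aa1 had 24.3, 20.96, 28.7 and 22.2 RPKM, with SKM highest. In both, as in the 11 copies, the OSKM value lay above that of empty vector and the G3SKM value below it. Hist3h2a had 4.61, 2.91, 3.60 and 4.23 RPKM, with a fold of OSKM over G3SKM of 1.59 (1.42 to 1.77). The OSKM value was its highest and the G3SKM value its lowest, as in the 3 copies described above, and its span overlaps that of Trim17.

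H2A and H2B genes often stand head to head and share the promoter between them, as Hist1h2bk and Hist1h2ah do in the Hist1h2bk stretch printed above. Among the 49 genes with a matched promoter, starts of opposite strand at most 500 bases apart gave 6 such H2A and H2B pairs. They stood 174 to 281 bases apart, and 5 of them had values. In all 5 the H2A gene stood higher than its H2B partner in OSKM against G3SKM, at log2 ratios of 0.93 to 1.07 for H2A and -0.31 to 0.06 for H2B. The same held in 5 of 5 pairs in OSKM against empty vector, 0.71 to 0.82 for H2A and -0.33 to 0.12 for H2B. In G3SKM against empty vector H2A stood below H2B in all 5, -0.25 to -0.22 for H2A and -0.02 to 0.18 for H2B. Both contrasts with empty vector use its single value, and all 5 H2A partners belong to the 11 copies. Pairs with a partner outside those 49 genes were not searched, such as Hist1h2ac with Hist1h2bc, Hist2h2ac with Hist2h2be and Hist3h2a with Hist3h2bb-ps. Hist1h2ac and Hist3h2a stood higher in OSKM than in G3SKM, and their partners lower. The partner of Hist3h2a is a pseudogene with 1 read in OSKM and 6 in G3SKM, too few to give a direction. In the Hist2 pair the values lay the other way, with Hist2h2ac at 1.52 and 2.30 RPKM and Hist2h2be at 0.414 and 0.354 RPKM in OSKM and G3SKM. Hist2h2be had 81 and 94 reads there and stayed under 1 RPKM.

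**Figure D4:**
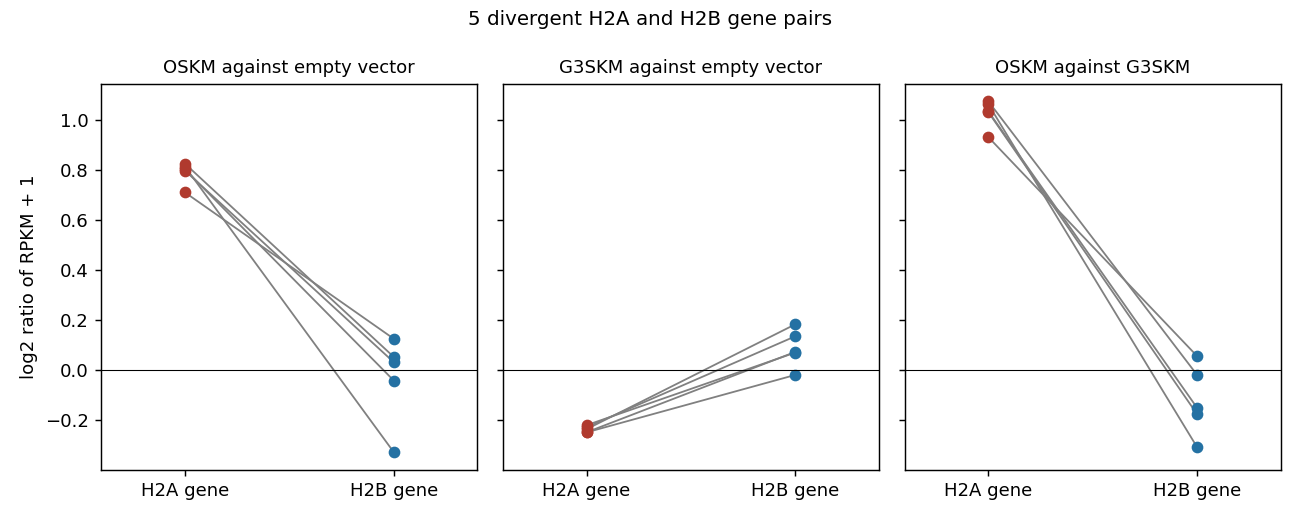
log2 ratio of RPKM + 1 for the H2A gene (left) and the H2B gene (right) of 5 divergently transcribed pairs, with a grey line joining each pair, in OSKM against empty vector, G3SKM against empty vector and OSKM against G3SKM. The H2A points lie at 0.93 to 1.07 in the last panel, where the H2B points lie at -0.31 to 0.06.

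Setting OSKM or G3SKM beside SKM shows what accompanied the addition of OCT4 or GATA3. No histone gene of 47 was called in either direction in either comparison, against 2.55% higher and 1.64% lower of all genes for OSKM and 4.43% higher and 1.1% lower for G3SKM. In OSKM against SKM the medians were 0.36 for H2A, -0.39 for H2B, -0.47 for H3 and -0.35 for H4. In G3SKM against SKM they were -0.58 for H2A, -0.26 for H2B, -0.40 for H3 and -0.38 for H4. All 6 H3 and all 11 H4 genes had a lower value in OSKM and in G3SKM than in SKM.

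The SKM values moved with the GC content of the transcript. Across genes, which are not independent replicates, the log2 ratio had a Spearman correlation with GC content of -0.71 in OSKM against SKM, -0.71 in G3SKM against SKM and 0.50 in SKM against empty vector, and of at most 0.06 in size in the comparisons without SKM. The histone transcripts had a median GC content of 58.1%, against 51.0% for all genes compared in OSKM against SKM, with 64.3% for H2A, 59.9% for H3, 57.0% for H4, 55.0% for H2B and 53.1% for H1. With the trend removed in 20 bins of GC content, the medians of OSKM against SKM were 0.72 for H2A, -0.26 for H2B, -0.07 for H3 and -0.01 for H4, and those of G3SKM against SKM were -0.13, -0.14, 0.02 and 0.04 in the same order. In SKM against empty vector 8 histone genes were then called higher, 6 of H4 and 2 of H3, with medians of 1.04 and 0.89, where 6.01% of all genes were called higher and 4.24% lower. In OSKM against empty vector 7 were called and in G3SKM against empty vector 10, where 4.44% and 6.44% of all genes were called higher and 4.16% and 3.73% lower. In OSKM against G3SKM 6 were called, where 0.654% of all genes were called higher and 2.05% lower. Against SKM again no histone gene was called, where 1.07% of all genes were called higher and 1.03% lower in OSKM and 1.97% higher and 0.603% lower in G3SKM. No histone gene was called lower with the trend removed.

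**Figure D5:**
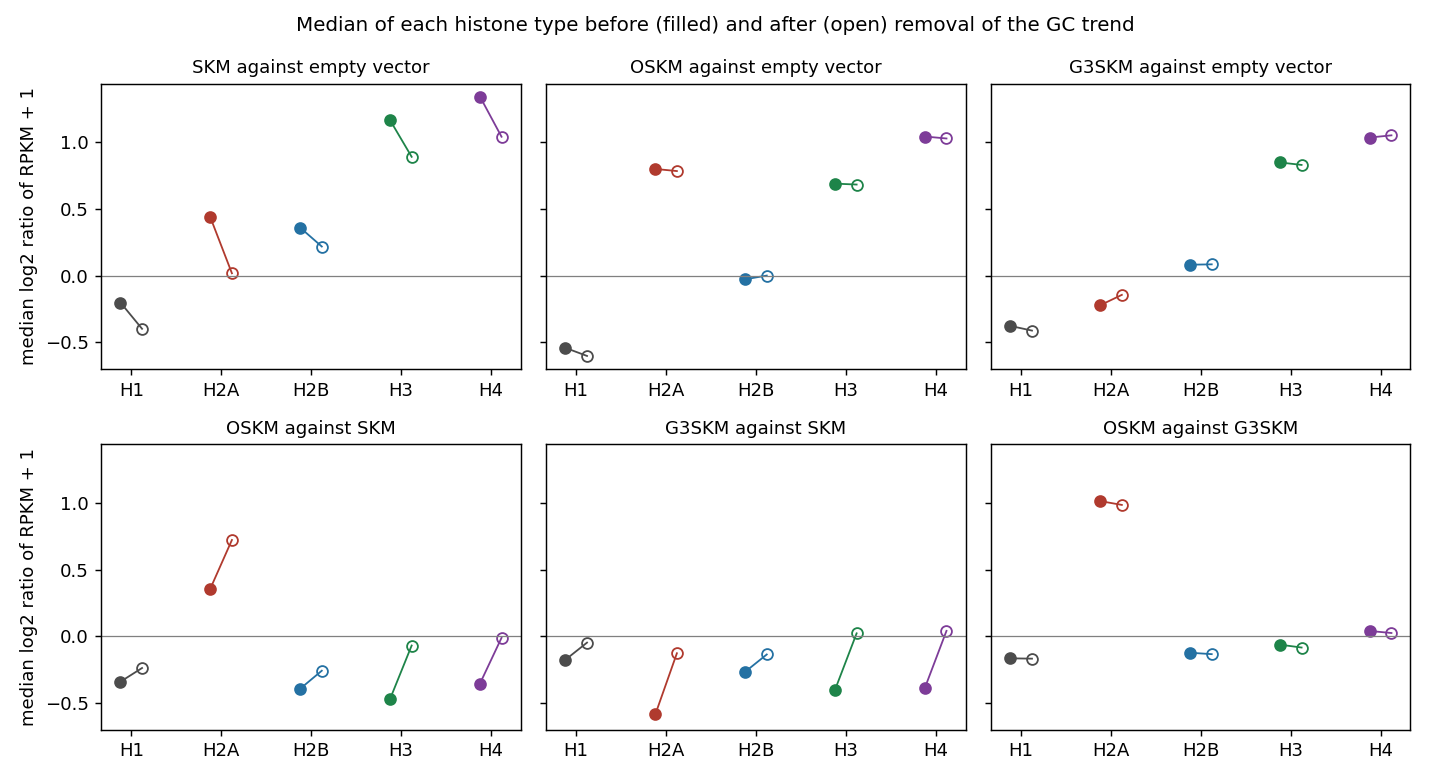
Median log2 ratio of RPKM + 1 of each histone type before (filled) and after (open) removal of the trend with GC content, in 6 comparisons with the group named first on top. The points shift in the 3 comparisons that use SKM and hardly in the others, where H4 stays near 1.03 to 1.05 against empty vector and H2A near 0.98 to 1.01 in OSKM against G3SKM.

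Genes with the octamer in their promoter and genes without it had overlapping values in the comparisons with OSKM. In OSKM against SKM, H2B genes with the octamer had log2 ratios of -0.77 to -0.44 with a median of -0.52 (4 compared), and H2B genes without it -0.69 to -0.16 with a median of -0.38 (6 compared). H2A genes with the octamer had a median of 0.37 (6 compared) and those without it 0.36 (9 compared). In OSKM against G3SKM the medians were 1.02 and 0.94 for H2A and -0.14 and -0.11 for H2B, with and without the octamer in turn. Most compared H2A genes on both sides belong to the 11 near-identical copies, so their medians are not separate measurements. Whether the octamer plays a part was not tested.

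Some members are known from other settings. Hist1h1t and Hist1h2aa, histone genes of the testis, had at most 4 reads in any group. Hist1h2ba, the testis H2B gene that is Hist1h2aa's divergent partner, had 5.34, 5.08, 9.82 and 5.66 RPKM in OSKM, G3SKM, SKM and empty vector cells on 155, 200, 206 and 244 reads, and it shares 38.2% of its windows with other H2B genes. Germ cell markers summed to 0.0944, 0.161, 0.143 and 0.105 RPKM. The human counterparts of 5 genes are known to make polyadenylated messages too. They are Hist1h1c, Hist1h2ac and Hist1h2bk, described above, and Hist1h2bc and Hist2h2be. Hist1h2bc had 2.14, 2.52, 2.29 and 2.86 RPKM, the highest in empty vector cells, and a fold of 0.747 (0.699 to 0.798) in OSKM. Its 2638 reads in empty vector cells were scaled to 8289 bases, although its exons hold 1156. Hist2h2be had 0.414, 0.354, 0.283 and 0.234 RPKM, with no window shared and a fold of 1.77 (1.27 to 2.48) in OSKM. Whether the cDNA was primed from poly(A) tails is not given in the sources used here, and how far it sets these levels was not tested.

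Replacement histone genes were set beside the replication-dependent class. Of 10 replacement histone genes 9 were compared. H1fx, a replication-independent linker histone, was called higher in SKM than in empty vector cells (46.6 against 18.8 RPKM, log2 1.27) and lower in G3SKM than in SKM cells (17.3 against 46.6 RPKM, log2 -1.38). H2afj, a replacement H2A gene, was called lower in OSKM than in SKM cells (24.4 against 54.4 RPKM, log2 -1.12). Of all genes 8.88% were called higher in SKM against empty vector, 1.1% lower in G3SKM against SKM and 1.64% lower in OSKM against SKM. None of these 3 calls was made with the GC trend removed. The median log2 ratio of the 9 was 0.37 in OSKM, 0.21 in G3SKM and 0.35 in SKM cells against empty vector. H3f3b, for H3.3, had 32.5, 30.5, 25.8 and 49.2 RPKM in OSKM, G3SKM, SKM and empty vector cells, with empty vector highest. H3f3a, the other H3.3 gene, had 16.8, 17.0, 11.9 and 12.8 RPKM, with OSKM and G3SKM above empty vector (log2 0.37 and 0.38) and SKM lowest. Neither gene was called.

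Of 16 compared genes of histone mRNA processing 1 was called higher in SKM than in empty vector cells, where 8.88% of all genes were called higher. It was Upf1, an RNA helicase that takes part in histone mRNA decay (8.94 against 3.53 RPKM, log2 1.13). Snrpe, an Sm protein of small nuclear ribonucleoproteins, was called higher in G3SKM than in SKM cells (12.7 against 4.09 RPKM, log2 1.43). It was 1 of 16 compared there, where 4.43% of all genes were called higher. Slbp, the stem-loop binding protein, had 2.37, 2.19, 1.54 and 1.89 RPKM in OSKM, G3SKM, SKM and empty vector cells, and Npat, a coactivator of histone gene transcription, had 0.904, 0.751, 0.543 and 0.764 RPKM. Npat stayed under 1 RPKM and was not compared. Slbp was not called, and its SKM value lay below that of empty vector, at a log2 ratio of -0.19 that became 0.23 with the GC trend removed. With the trend removed neither Upf1 nor Snrpe was called, at 0.74 and 0.92. The Sm protein genes Snrpf in SKM (0.93, and 1.51 with the trend removed) and Snrpg in G3SKM (0.98 and 1.03) then reached the threshold against empty vector. None of 13 compared histone chaperones was called in any of the 6 comparisons, where 0.724% to 8.88% of all genes were called higher and 1.1% to 5.98% lower. With the trend removed Nasp, a chaperone of H1 and of H3-H4, reached 1.01 in both OSKM and SKM against empty vector, where its log2 ratios were 0.87 and 0.42 before.

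DNA replication genes were compared because histone genes are transcribed in the same phase. In OSKM against empty vector 3 of 35 were called higher and none lower, where 4.82% of all genes were called higher and 4.16% lower: Cdt1, a licensing factor (13.55 against 5.32 RPKM, log2 1.20), and the helicase subunit Mcm7 and the initiation factor Mcm10 (log2 1.15 and 1.03). In SKM against empty vector 3 of 32 were called higher, Cdt1 (log2 1.52), the polymerase delta subunit Pold1 (1.11) and Mcm7 (1.01), and Rrm1, a ribonucleotide reductase subunit, was called lower (-1.06, and -0.59 with the GC trend removed), where 8.88% of all genes were called higher and 5.98% lower. None of 32 was called in G3SKM against empty vector, where 7.11% of all genes were called higher and 3.75% lower. With the GC trend removed 2 were called higher in OSKM, Cdt1 and Mcm7, and 2 in SKM, Cdt1 and the polymerase alpha subunit Pola2 (1.24, and 0.97 before). The median log2 ratios of these lists were 0.41 in OSKM, 0.30 in G3SKM and 0.19 in SKM, against medians of 1.04, 1.03 and 1.34 for H4. In the same order the medians were 0.69, 0.85 and 1.16 for H3 and 0.80, -0.22 and 0.44 for H2A. For H2B they were -0.03, 0.08 and 0.36, and for H1 -0.54, -0.38 and -0.20. In OSKM against G3SKM none of 35 was called and the median was 0.16.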

How the data were processed

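The labels describe TRIzol extraction, DNase treatment, 10 further PCR cycles on cDNA that was already amplified, sonication and a library kit made for DNA. TopHat 1.3.0 and the build mm9 are named in the submitters' processing notes. The counter and annotation used, and how the 2 replicates became 1 value, are not given in any source used here. The 3 tables the authors deposited hold, per the file headers, RPKM and the log2 of their ratio, and recomputing that ratio gave a largest deviation of 0.0017. The SKM column was identical in all 3 tables, so columns of different tables were compared. A value of 0.001, or a gene a table does not list, was read as 0.

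The members and gene lists were chosen with earlier results of these data known. Multiplied by gene length (end minus start, GENCODE M21), the RPKM fell within 0.05 of whole multiples of 1 step per column for 74.7% to 76.7% of genes, which gave depths and reads. Lengths were annotated for 27 members and fitted for 29 (at least 300 bases), whose reads and intervals are approximate. PCR and shared reads make the intervals too narrow. Named genes were, by rule, the 3 highest of each type, the 5 largest log2 ratios of each comparison in either direction, the testis genes, 5 genes with polyadenylated human counterparts, and up to 3 called context genes in either direction. The remainder were chosen after their values were seen. The procedure was tested on simulated data. Alternatives were pseudocounts of 0.1 and 5 RPKM, filters, a threshold of 2, centring, a trimmed mean, GC removal in 20 bins, exon length and a minimum of 100 reads. Python 3.11.15, pandas 2.3.3, numpy 2.4.6, SciPy 1.17.1 and matplotlib 3.10.9 were used.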

Additional observations from a re-analysis of the deposited data

How the results depend on the processing

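No paired analysis was possible because each group has 1 value that combines its 2 replicates, and no replicate could be left out. With 5 RPKM added in place of 1, 0 of 45 histone genes were called higher in OSKM against empty vector. For G3SKM it was 0 of 46, for SKM 2 of 47, and for OSKM against G3SKM 1 of 46. With 0.1 RPKM added 15 of 45 were called higher in OSKM against empty vector, and 2 of 47 were called lower in OSKM against SKM. A threshold of 2 left 0 in every comparison. A filter at 5 RPKM left fewer genes to compare. It gave 9 of 31 called higher in SKM and 5 of 27 in G3SKM against empty vector, beside 14 of 47 and 10 of 46 as reported. Centring on the median or scaling by a trimmed mean each gave 0 higher and 1 lower in OSKM and 0 higher in G3SKM against empty vector. Removing the GC trend gave 8 of 47 higher in SKM against empty vector. Among these alternatives the share of all genes called was computed only for GC removal.

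The log2 ratio of summed RPKM was 0.65 for OSKM, -0.02 for G3SKM and 0.53 for SKM against empty vector. Centring gave 0.47, -0.19 and 0.39, and the trimmed mean 0.42, -0.24 and 0.36. GC removal gave 0.020 for G3SKM, reversed in sign, and 0.17 for SKM, and exon length gave -0.060 and 0.50. Against SKM, OSKM stood at 0.12 (0.52 with GC removed, 0.15 by exon length) and G3SKM at -0.56 (-0.14 with GC removed). OSKM against G3SKM stood at 0.68 (0.64 and 0.70).

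The restriction to genes with at most 50% shared windows was chosen after seeing the data. It gave 4 of 20 higher in OSKM and 8 of 22 in SKM against empty vector, and 2 of 21 in OSKM against G3SKM. The sums became 0.44 for OSKM, 0.17 for G3SKM (reversed) and 0.62 for SKM against empty vector, -0.18 for OSKM (reversed) and -0.45 for G3SKM against SKM, and 0.27 for OSKM against G3SKM. Fewer genes enter there, and the cause of the other shifts was not tested. Few reads limit members such as Hist1h1t, Hist1h2aa and Hist2h4, which had at most 4, 1 and 17 reads in any group.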
